A study of Mus musculus with 6 samples.

Results

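The 9 myelin genes Mbp, Mobp, Mog, Mag, Mal, Cnp, Cldn11, Opalin and Ermn were taken by symbol from a table of 18204 genes, and all 9 had a row. The table came from Drop-seq, a droplet method that reads the 3′ end of each transcript and counts distinct molecules by a unique molecular identifier (UMI). Hypothalamus was dissociated from 3 IDOL KO and 3 WT libraries of C57BL/6J mice aged 8 weeks. IDOL is the protein of the gene Mylip, a ubiquitin ligase that sends lipoprotein receptors for degradation. Libraries were prepared on 2 days with the groups mixed, and neither the day of a library nor the deleted part of Mylip nor the number of mice behind a library is given in the sources used here. P-values therefore measure the spread between these libraries, and a day effect within a group cannot be told apart from that spread.

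Myelin is the stack of membrane that oligodendrocytes wrap around axons. Oligodendrocyte precursors leave division, pass through a short stage marked by Gpr17, Bmp4 and Enpp6, and then switch on the myelin programme. Myelin basic protein (Mbp) and Mobp hold the cytoplasmic faces of the membrane together, and their transcripts are carried out of the cell body into the processes where the membrane is laid down. Cnp keeps cytoplasmic channels open within the sheath. Cldn11 forms the tight junctions between its layers. Mag sits on the innermost membrane facing the axon, whereas Mog is on the outermost surface. Mal is a small proteolipid of lipid rafts, Opalin a membrane glycoprotein of oligodendrocytes, and Ermn (ermin) a cytoskeletal protein of late oligodendrocytes.

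After filters, 9329 cells remained, 1028 to 1944 per library, with 1500298 to 3647575 UMIs per library and a median of 801 to 1016.5 UMIs per cell. Clusters were built without the 9 genes and named from other markers, which gave 9104 cells in 12 classes and left 225 unnamed. Mylip had 2, 0 and 0 UMIs in the IDOL KO libraries, against 68, 27 and 43 in the WT libraries, which fits the labels. The 1266 oligodendrocytes had 3723 CPM (UMIs per 1000000 UMIs of the cells) of Trf, the iron carrier transferrin, 1305 CPM of Ugt8a, an enzyme of galactolipid synthesis, and 3.55 CPM of the precursor marker Pdgfra. These genes were among the naming markers, so their levels describe the class and are no separate check of its name. Of the markers of Schwann cells, which make peripheral myelin, Prx was at 0 CPM in oligodendrocytes, Ncmap, Egr2 and Mlip between 0.591 and 6.51 CPM, and Pmp22 at 216 CPM. Pairs of libraries shared at most 1 barcode.

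The windows from 250 bases before to 50 bases after the RefSeq start (GRCm38.p6) were available for 8 of the 9 genes, all but Mbp. A pair of short words was searched on both strands: ACAAAG, the core bound by SOX factors such as the lineage factor SOX10, present in 18.71% of 32851 mouse promoter windows, and CTGGCAC or CTGGTAC, letters of the kind bound by the myelin regulatory factor MYRF, present in 7.096%. The SOX word occurred 6 times in Mobp, 2 times in Opalin and 1 time each in Mag and Cnp. The MYRF word occurred 1 time each in Mog, Mag, Cnp and Opalin. Neither word was found in the windows of Mal, Cldn11 and Ermn. The windows of 4 genes are shown because these genes separate in the values given further on: Mag appears early and Opalin late along the lineage, Mobp is among the genes most widely seen outside it, and Mal is the gene also found in endothelial cells. They are Mag on the minus strand at chr7:30914873-30915172 (the most upstream of 3 listed starts), Mobp on the plus strand at chr9:120149492-120149791, Opalin on the minus strand at chr19:41077064-41077363 and Mal on the minus strand at chr2:127656646-127656945. Capitals mark matches to either word on either strand, and a match is only a description of the letters.
Mag: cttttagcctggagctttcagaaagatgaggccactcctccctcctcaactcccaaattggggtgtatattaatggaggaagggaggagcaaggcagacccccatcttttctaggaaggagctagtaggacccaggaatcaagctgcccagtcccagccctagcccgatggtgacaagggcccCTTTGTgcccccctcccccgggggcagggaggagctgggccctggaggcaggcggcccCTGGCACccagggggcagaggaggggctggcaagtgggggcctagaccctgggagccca
Mobp: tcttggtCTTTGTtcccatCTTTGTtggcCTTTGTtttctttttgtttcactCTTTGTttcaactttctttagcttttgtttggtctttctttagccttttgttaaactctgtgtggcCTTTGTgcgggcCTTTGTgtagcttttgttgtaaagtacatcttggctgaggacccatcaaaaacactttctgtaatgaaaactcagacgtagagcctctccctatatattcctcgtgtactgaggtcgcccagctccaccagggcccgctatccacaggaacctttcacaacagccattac
Opalin: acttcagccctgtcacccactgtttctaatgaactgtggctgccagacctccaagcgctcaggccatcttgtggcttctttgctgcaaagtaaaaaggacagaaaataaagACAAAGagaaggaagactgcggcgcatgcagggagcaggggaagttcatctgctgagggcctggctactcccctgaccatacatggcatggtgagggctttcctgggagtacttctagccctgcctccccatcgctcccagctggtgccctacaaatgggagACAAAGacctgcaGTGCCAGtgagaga
Mal: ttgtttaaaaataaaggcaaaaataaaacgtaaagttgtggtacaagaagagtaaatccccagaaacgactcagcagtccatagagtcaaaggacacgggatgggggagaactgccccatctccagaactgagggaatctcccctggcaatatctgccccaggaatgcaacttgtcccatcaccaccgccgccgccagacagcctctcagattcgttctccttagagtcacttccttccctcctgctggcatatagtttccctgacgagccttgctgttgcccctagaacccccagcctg

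The genes lie at separate places in GRCm38: Mbp at chr18:82475146-82585637 on the plus strand, Mobp at chr9:120149707-120181484 (plus), Mog at chr17:37010743-37023398 (minus), Mag at chr7:30899176-30914873 (minus), Mal at chr2:127633226-127656695 (minus), Cnp at chr11:100574904-100591729 (plus), Cldn11 at chr3:31149920-31164324 (plus), Opalin at chr19:41061710-41077113 (minus) and Ermn at chr2:58045113-58052864 (minus). Whether counting used strand is not given in the sources used here. The 3′ end of Cnp meets that of Dnajc7 on the opposite strand, the ends of Ermn and Galnt5 meet in the same way, as do those of Mog and Zfp57, and Mbp overlaps an antisense ribosomal pseudogene (Rpl21-ps8). Gm38642 overlaps Mobp near its 3′ end on the same strand and was not analysed here. Galnt5 had at most 2.96 CPM in any class and Zfp57 at most 25 CPM, while Dnajc7 had 98.2 to 228 CPM in every named class.

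The 9 genes did not come up together along the lineage. The lineage was read in 5 steps: 589 precursors, 68 newly formed cells led by Gpr17 and Bmp4, 26 newly formed cells led by Nfasc and Enpp6, 22 early oligodendrocytes and 1244 other oligodendrocytes. Levels are in CPM of the pooled cells with the exact Poisson interval, which covers counting error only. Since the steps are clusters of the same cells, all values along them are descriptions with no test. CPM of 3′ tags are not divided by transcript length, so levels of different genes are set side by side only as UMIs.

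Mbp and Cnp were the first. Mbp had 555 CPM (95% interval 493 to 623) in precursors, 4480 CPM (4082 to 4906) in the Gpr17 cells and 15123 CPM (14060 to 16246) in the Nfasc and Enpp6 cells. It was highest, at 23384 CPM (22295 to 24513), in early oligodendrocytes and stood at 10181 CPM in the other oligodendrocytes. Cnp followed the same order, with 169, 2442, 4705, 7313 and 4429 CPM. In the Gpr17 cells 89.7% held a Cnp UMI, against 13.9% of precursors, at median depths of 1364.5 and 790 UMIs.

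Mag and Cldn11 came next and together. Mag had 17.3 CPM (7.91 to 32.8) in precursors, 481 CPM (357 to 634) in the Gpr17 cells, 3574 CPM (3067 to 4141) in the Nfasc and Enpp6 cells, 12409 CPM (11619 to 13238) in early oligodendrocytes and 6138 CPM in the others. Cldn11 had 11.5, 721, 4422, 8854 and 5814 CPM in the same order. Both genes were highest in the early oligodendrocytes, where Mag lay between 8168 and 16126 CPM in single libraries.

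Mobp, the partner of Mbp in compaction, was later. Its level was 219 CPM (181 to 263) in precursors, 115 CPM (59.6 to 202) in the Gpr17 cells and 262 CPM (140 to 449) in the Nfasc and Enpp6 cells, so it did not follow Mbp through the newly formed steps. It then stood at 6177 CPM (5624 to 6770) in early oligodendrocytes, beside 6371 CPM in the others. Single libraries lay between 1885 and 12094.5 CPM in the early oligodendrocytes.

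Mog, Opalin, Ermn and Mal were the last to come near their level in the other oligodendrocytes. Mog had 3.84, 212, 323 and 514 CPM in the first 4 steps and 2663 CPM in the other oligodendrocytes. Its rise began before that of Mobp. Mog was at 7.94% of its last level in the Gpr17 cells and 12.1% in the Nfasc and Enpp6 cells. Mobp was there at 1.81% and 4.12%. Opalin had 1.92, 19.2, 20.2 and 351 CPM and then 1458 CPM. Ermn had 9.61, 9.61, 20.2 and 203 CPM and then 4475 CPM. In early oligodendrocytes Mog was at 19.3%, Opalin at 24.1% and Ermn at 4.53% of the level in the others. The Opalin level rested on IDOL KO 2, which held 20 of its 26 UMIs, and without that library it was 105 CPM, or 8.30% of the level in the others. Other values of these steps that moved over 1.5 times with a library left out came from 13 or fewer UMIs. The early oligodendrocytes are the cells in which Mbp, Mag, Cnp and Cldn11 were highest.

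Mal made the sharpest step. It had 21.1 CPM (10.6 to 37.8) in precursors, 38.5 CPM (10.5 to 98.5) in the Gpr17 cells, no UMI in the Nfasc and Enpp6 cells (upper bound 74.5 CPM) and 54.1 CPM (14.7 to 138) in early oligodendrocytes, against 8113 CPM in the others. Only 18.2% of the 22 early cells held a Mal UMI although their median depth was 3421 UMIs. The early cells were few in each library, so the library ranges of the early steps are wide.

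**Figure D1:**
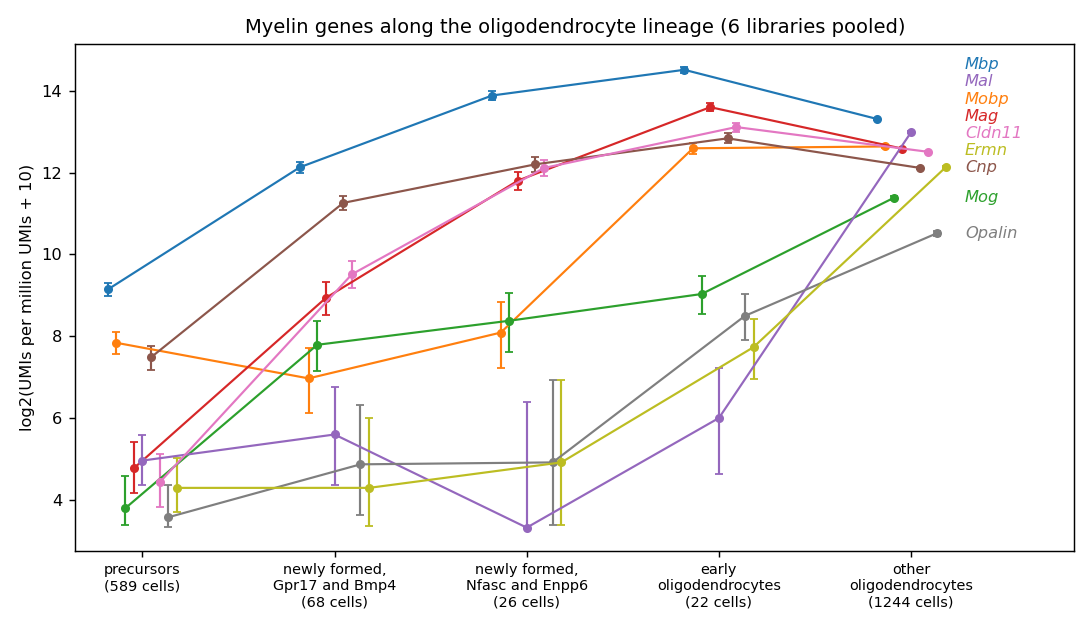
Level of each myelin gene, as log2(CPM + 10), in 5 steps of the oligodendrocyte lineage with the 6 libraries pooled; bars are exact 95% Poisson intervals and cover counting error only. Mbp and Cnp climb first, Mag and Cldn11 next, Mobp only in early oligodendrocytes and Mal only at the last step, with 54.1 CPM in the early and 8113 CPM in the other oligodendrocytes.

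Among the 1266 oligodendrocytes a finer clustering without the 9 genes gave 6 states, which again carry no test. State 1 (394 cells) was led by Il33 and Apoe, state 2 (330 cells) by Apoe, Il33 and Meg3, state 3 (223 cells) by Klk6, S100b and Anxa5, state 4 (211 cells) by the immediate early genes Egr1, Junb and Fosb, state 5 (85 cells) by Man1a and Ctps, and state 6 (23 cells) by Marcks and Tmem2. The leading genes of state 2 include Slc1a2 and Agt, which are also high in astrocytes, and the part of RNA from other cells in it was not tested. Most myelin genes were close to level over states 1 to 4. Mbp, for example, had 10191, 9038, 10965 and 10649 CPM, and Cnp 4053, 3886, 4198 and 4303 CPM.

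Opalin was the exception in state 3. Its level there was 257 CPM, against 1679, 1534 and 1502 CPM in states 1, 2 and 4. In single libraries state 3 had 271, 758 and 186 CPM in IDOL KO and 195, 380 and 189 CPM in WT, the lowest of states 1 to 5 in each of the 6. Mal was also lower in state 3, at 5143 CPM, against 8723, 8509 and 9696 CPM in states 1, 2 and 4, and here too the lowest of states 1 to 5 in every library. Ermn went the other way, with 5716 CPM in state 3 and 3994 to 4650 CPM in states 1, 2 and 4, and it was highest there in each library. Klk6 and S100b cells thus combined a high Ermn level with little Opalin.

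State 5 held more of several membrane genes. Mag had 12482 CPM in state 5, against 4881 to 5770 CPM in states 1 to 4. Mobp had 10463 CPM there, against 5302 to 6389 CPM, and Opalin 3175 CPM, against 257 to 1679 CPM. Mbp did not share this, with 10122 CPM. State 6 held the 22 early oligodendrocytes of the lineage and 1 other cell, and had 23413 CPM of Mbp and 12845 CPM of Mag beside 51.7 CPM of Mal and 207 CPM of Ermn. Opalin had 401 CPM there, with 25 of the 31 UMIs from IDOL KO 2, and 105 CPM without that library.

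**Figure D2:**
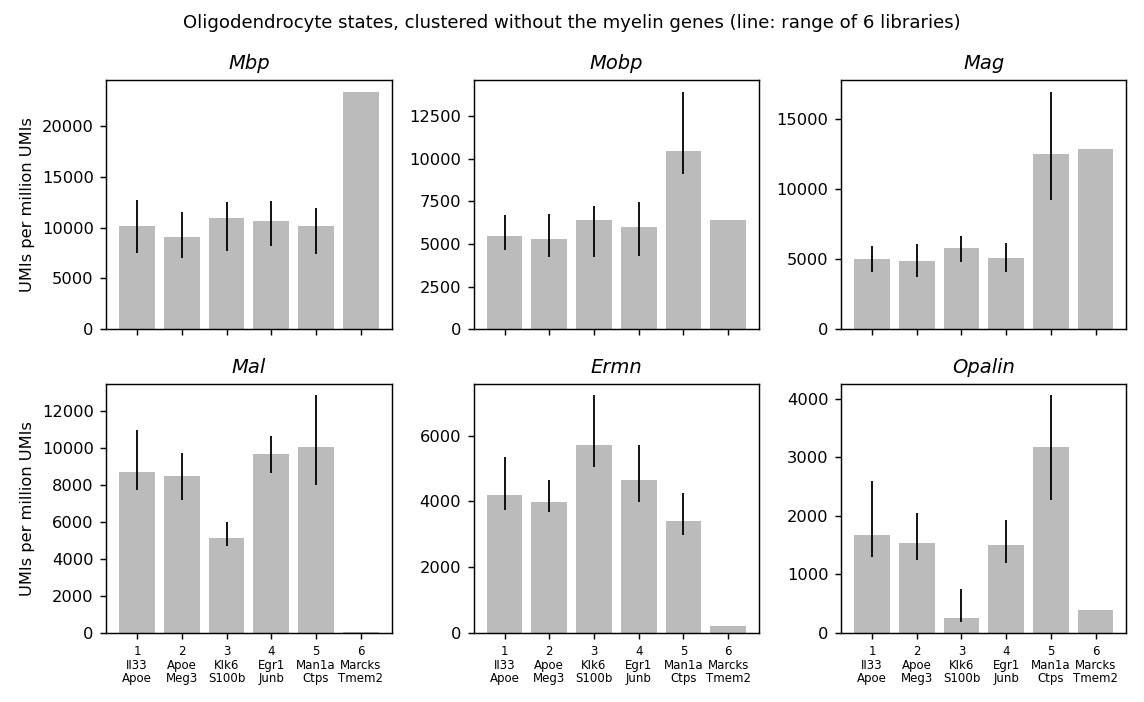
CPM of 6 myelin genes in the 6 oligodendrocyte states, each named below the axis by number and leading genes; bars are pooled cells and lines the range over libraries with at least 5 cells of the state (drawn where all 6 libraries had them, so not for state 6). Opalin is lower in state 3, at 257 CPM, than in states 1, 2, 4 and 5, Mag and Mobp are high in state 5 at 12482 and 10463 CPM, and Mal is nearly missing from state 6 at 51.7 CPM.

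Cells thinned to 500 UMIs show how often each gene is met in an oligodendrocyte at equal depth (1220 cells, 46 shallower ones left out). Mbp was found in 98.9% of them, Mal in 93.6%, Mobp in 92.0%, Cldn11 in 91.9%, Mag in 89.9%, Cnp in 84.6% and Ermn in 82.2%. Mog was found in 68.9% and Opalin in 46.6%. Without thinning the shares were 99.7% for Mbp and 66.0% for Opalin at a median of 1077 UMIs. Neurons, a class outside the lineage, gave 13.9% for Mbp, 5.86% for Mobp and at most 1.19% for any other member after thinning, at a median of 1440 UMIs before it. Each oligodendrocyte carried a median of 51 UMIs of the 9 genes together, and no oligodendrocyte had fewer than 8.

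Oligodendrocytes of the 2 genotypes were then compared, to see whether loss of IDOL went with a different myelin programme. None of the 9 genes passed edgeR's quasi-likelihood test with Benjamini-Hochberg adjustment over 4101 genes, where 6 genes (0.146%) passed. None had an unadjusted p under 0.05 in edgeR, against 6.66% of all genes, and DESeq2 called 3 genes, none of them a member. The groups did not overlap for 12.1% of all genes and overlapped for each of the 9.

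Opalin had 1246, 2460 and 1166 CPM in the IDOL KO libraries and 1170, 1371 and 1212 CPM in the WT libraries. Library IDOL KO 2 stood apart, and the other 5 lay between 1166 and 1371 CPM. The means were 1624 ± 725 CPM in IDOL KO and 1251 ± 106 CPM in WT (SD, n = 3 each), and the fitted log2 fold change was 0.38 ± 0.24 (SE, edgeR), which became -0.05 without IDOL KO 2. Mag had 5427, 9759 and 5246 CPM in IDOL KO and 6524, 5274 and 6681 CPM in WT. Again IDOL KO 2 alone was high, and the log2 fold change of 0.15 ± 0.23 became -0.21 without it. State 5, rich in Mag and Opalin, made up 7.58%, 14.4% and 4.41% of oligodendrocytes in IDOL KO and 3.21%, 6.29% and 4.37% in WT, the highest share being in IDOL KO 2. With that state set aside, Opalin had 1045, 1940 and 1052 CPM in IDOL KO and 1011, 1119 and 1075 CPM in WT, so IDOL KO 2 was still the highest.

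Mbp had 8869, 9462 and 11759 CPM in IDOL KO and 11134, 9278 and 13126 CPM in WT. The ranges overlapped over most of their width, and the means were 10030 ± 1527 CPM in IDOL KO and 11179 ± 1925 CPM in WT (SD, n = 3 each), a log2 fold change of -0.16 ± 0.20. Mobp had 5332, 6671 and 5774 CPM in IDOL KO and 7390, 6746 and 6493 CPM in WT. Here 2 of the 3 IDOL KO libraries lay below all WT libraries, and the log2 fold change was -0.21 ± 0.20 (SE, edgeR). Mal had 7595, 8380 and 7963 CPM in IDOL KO and 7189, 8583 and 6956 CPM in WT, a log2 fold change of 0.07 ± 0.20.

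The remaining members had fitted values of the same size or smaller. Fitted log2 fold changes were -0.17 for Cldn11, 0.03 for Cnp, -0.07 for Ermn and -0.18 for Mog, each with an SE of 0.19 or 0.20. Adjusted p-values of the 9 genes in edgeR ran from 0.773 to 0.984. The median over the 9 genes was -0.07, beside -0.00 over all genes tested.

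**Figure D3:**
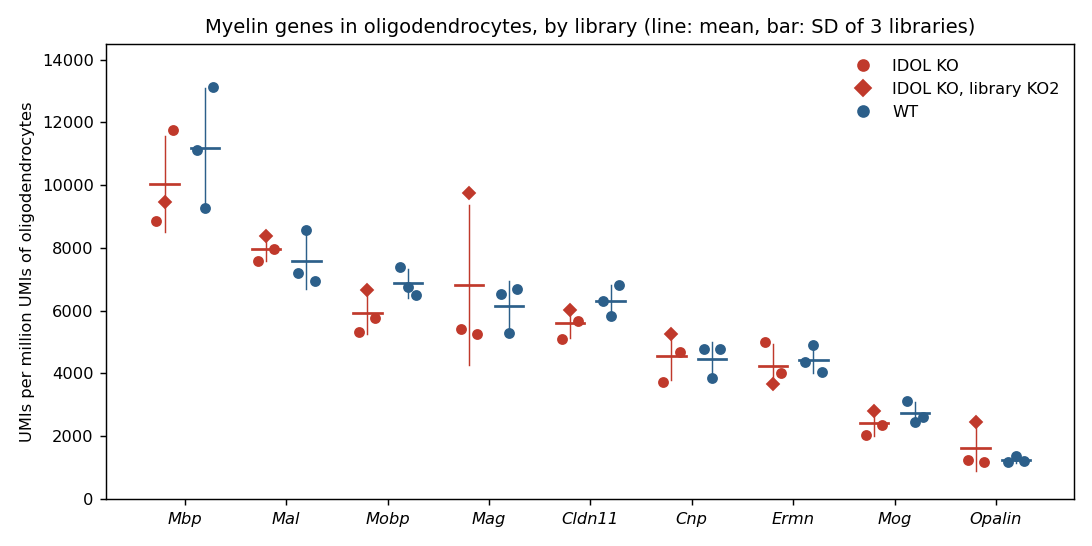
CPM of each myelin gene in oligodendrocytes, one point per library, with group means as horizontal lines and the SD of 3 libraries as vertical lines. IDOL KO points are on the left of each pair, with IDOL KO 2 as a diamond; the groups overlap for every gene, and IDOL KO 2 alone is high for Mag (9759 CPM) and Opalin (2460 CPM).

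Other genes of the myelin programme were counted in the same fit. Of 24 membrane and junction genes 23 were tested, 13 with a fitted value above 0 and 10 below, with a median of 0.01, beside 49.9% of all genes above 0. None passed. Nfasc, the neurofascin of the paranode, had a log2 fold change of 0.60 ± 0.23, Tmem88b 0.48 ± 0.19 and the sphingosine receptor S1pr5 -0.45 ± 0.22, and these 3 had unadjusted p under 0.05 in edgeR. The 10 genes of myelin lipid synthesis, such as Ugt8a and Fa2h, had a median of -0.03 and the 9 tested lineage factors a median of 0.17, with none passing. Of 17 tested genes of mature oligodendrocyte states 15 were fitted below 0, with a median of -0.27. Among them Sepp1, a selenium carrier, averaged 873 ± 239 CPM in IDOL KO and 1483 ± 291 CPM in WT (TMM scale, SD, n = 3 each), a log2 fold change of -0.76 ± 0.22, and Anxa5 was at -0.77 ± 0.27. State 3, of which Anxa5 is a leading gene, made up 15.2%, 8.84% and 18.3% of oligodendrocytes in IDOL KO and 24.6%, 17.1% and 23.0% in WT, and the part of these shares in the list's values was not tested. Ctps, a leading gene of state 5, went the other way at 1.16 ± 0.37. Without IDOL KO 2 it stood at 0.63 and Nfasc at 0.22. Adjusted p-values of these named genes in edgeR were 0.382 or higher, and 8 cytoskeletal and transport genes had a median of 0.05 with none passing.

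The share of oligodendrocytes and the summed myelin transcripts differed between genotypes by less than the spread between libraries. Oligodendrocytes made up 14.4%, 11.5% and 15.2% of cells in IDOL KO and 9.98%, 17.0% and 15.9% in WT (two-sided exact permutation p = 0.7, the smallest possible being 0.1). The 9 genes together took 444, 545 and 487 of each 10000 UMIs of oligodendrocytes in IDOL KO and 519, 483 and 527 in WT (exact p = 0.7). Over all cells the values were 50.9, 57.6 and 88.4 in IDOL KO and 49.5, 75.1 and 85.8 in WT (exact p = 1). In precursors 3 members could be tested, none passed, and fitted log2 fold changes ran from -0.37 to 0.30. There 0 of 2167 genes (0%) passed edgeR, 148 genes had an unadjusted p under 0.05 and DESeq2 called 0.

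Outside the lineage the genes fell into a pair of patterns. Between 84.1% and 89.7% of all UMIs of the 9 genes lay in oligodendrocytes, and 6.70% to 12.4% lay in cells of other classes. Mbp and Mobp were met in every class, while most other members were close to 0. As a share of the oligodendrocyte level, Mbp reached 11.2% in astrocytes, 9.10% in microglia, 5.43% in precursors, 4.77% in endothelial cells, 2.82% in neurons and 1.67% in tanycytes, the ventricle-lining glia. Mobp gave 6.36%, 6.77%, 3.26%, 3.19%, 1.53% and 1.33% in the same classes. In neurons the other 7 members were each at 0.598% or less. The astrocyte level of Mbp was uneven over clusters. A cluster of 187 cells held 776 of the 1668 Mbp UMIs of astrocytes, at 2856 CPM. The other astrocyte clusters lay between 633 and 1344 CPM of Mbp. In microglia 1 WT cell with 149 UMIs of the 9 genes held 26.9% of the class's total, among them 22 of the 26 Cldn11 UMIs, 14 of 17 for Mog, 18 of 24 for Ermn and 23 of 40 for Mag. Without that cell Cldn11 was at 0.206% of its oligodendrocyte level in microglia, Mog at 0.608%, Ermn at 0.516%, Mag at 0.925% and Mbp at 8.30%.

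Barcodes under 300 genes, which were not kept as cells, held more. Of 3965 such barcodes, the 3298 within the mitochondrial limit were used, at a median of 320 UMIs. Depending on the library, 2.48% to 9.02% of them held 10 or more UMIs of the 9 genes. The part of shallow oligodendrocytes in this set was not tested. Over the whole set the 9 genes were at 5.89% to 18.9% of the oligodendrocyte level, with Mbp the highest and Mobp next at 12.9%. In these barcodes Mbp made up 25.7% to 49.9% of the UMIs of the 9 genes, depending on the library. In oligodendrocytes it made up 17.4% to 24.9%, and in neurons 56.6% to 67.2%. The mix of the 9 genes in neurons was therefore richer in Mbp than in either, in each of the 6 libraries, and where these UMIs came from was not tested.

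**Figure D4:**
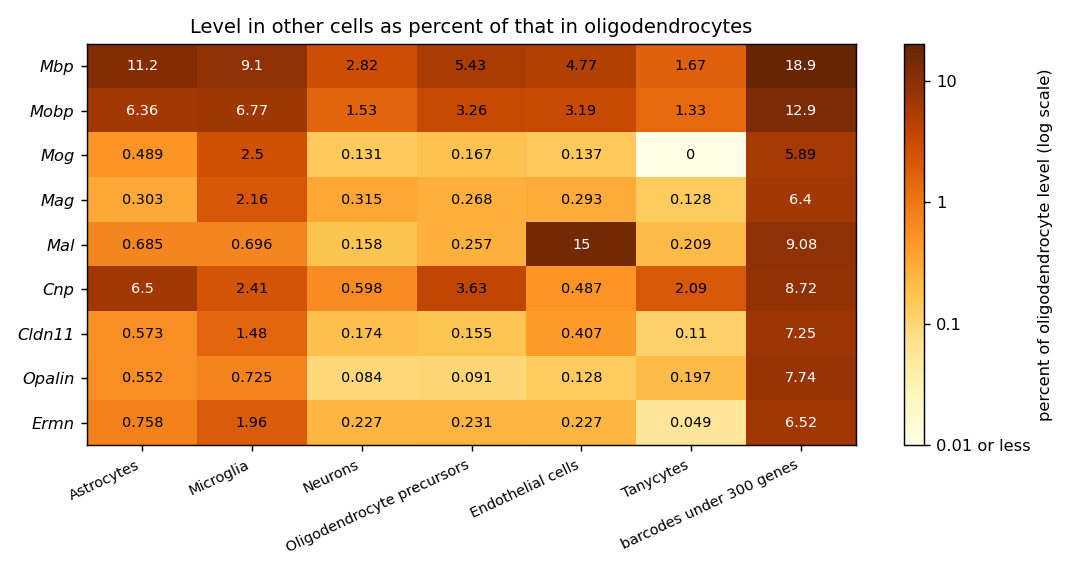
Level of each gene in other classes and in barcodes under 300 genes as a percent of its level in oligodendrocytes (means of 6 libraries, color on a log scale). The Mbp and Mobp rows are raised in every column, Mal stands out in endothelial cells (15%) and Cnp in astrocytes (6.5%).

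The amount outside the lineage varied between libraries, and the genotypes overlapped. Mbp had 0.461, 0.336 and 2.27 UMIs per astrocyte in IDOL KO and 0.398, 0.692 and 1.68 in WT. Per neuron it had 0.495, 0.351 and 0.802 UMIs in IDOL KO and 0.462, 0.616 and 1.16 in WT. Libraries IDOL KO 3 and WT 3 were high in both classes. In endothelial cells the values were 0.271, 0.277 and 0.631 in IDOL KO and 0.315, 0.467 and 0.993 in WT, with the same pair at the top. In microglia Mbp had 0.373, 0.320 and 0.655 UMIs per cell in IDOL KO and 0.810, 0.605 and 1.37 in WT, with WT 2 below IDOL KO 3. The WT 1 value came from 63 cells and includes the rich WT cell, which alone held 27 Mbp UMIs. That cell held 149 of the 184 UMIs of the 9 genes in WT 1 microglia. The 9 genes together averaged 0.824 ± 0.297 UMIs per microglial cell in IDOL KO and 1.99 ± 0.926 in WT (SD, n = 3 each, the rich WT cell included), a difference that was not tested. Oligodendrocytes themselves carried 10.6, 11.4 and 16.5 Mbp UMIs per cell in IDOL KO and 18.1, 11.1 and 18.0 in WT.

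**Figure D5:**
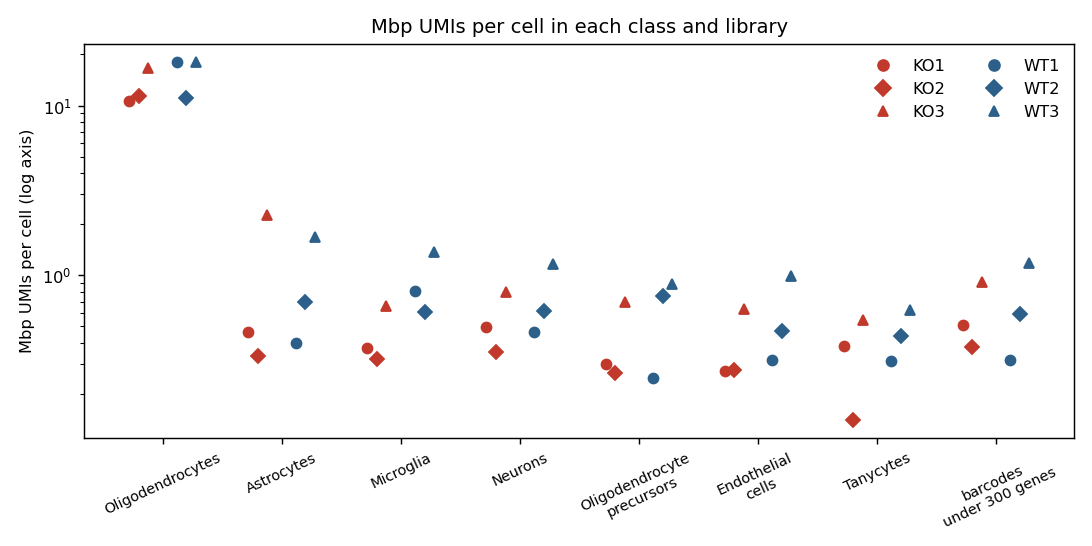
Mbp UMIs per cell (log axis) in oligodendrocytes, 6 other classes and barcodes under 300 genes, one point per library with IDOL KO in red on the left. IDOL KO 3 and WT 3 lie high in astrocytes (2.27 and 1.68), neurons (0.802 and 1.16) and endothelial cells (0.631 and 0.993).

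In all cells outside the lineage the 9 genes took 4.84, 4.60 and 15.4 of each 10000 UMIs in IDOL KO and 5.08, 7.64 and 13.1 in WT (exact permutation p = 0.8). As a percent of the level in oligodendrocytes this was 1.09%, 0.845% and 3.17% in IDOL KO and 0.978%, 1.58% and 2.49% in WT (exact p = 1). Cells with under 10 UMIs of the 9 genes gave 4.53, 4.43 and 10.7 in IDOL KO and 4.25, 7.10 and 11.8 in WT. IDOL KO 3 and WT 3 were still the highest of their groups, with WT 3 now above IDOL KO 3. Across the 6 libraries the level outside the lineage was set against the share of UMIs that oligodendrocytes took, 10.3%, 9.42% and 15.3% in IDOL KO and 8.32%, 13.9% and 13.7% in WT. Pearson's r was 0.87 (exact permutation p = 0.0319, 0.0639 adjusted over 2 relations) and Spearman's rho was 0.77 (p = 0.103, 0.206 adjusted, exact). Without WT 1 and IDOL KO 3, the libraries farthest from the median, r was 0.79. The relation did not pass after adjustment. The level in barcodes under 300 genes gave r = 0.66 (exact p = 0.164, also 0.164 adjusted), rho = 0.43 (exact p = 0.419, also 0.419 adjusted) and r = 0.47 without WT 1 and WT 3. Barcodes with 10 or more UMIs of the 9 genes were included in that level. Days of preparation could not be separated here, since the day of a library is not given.

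A few cells held a large part. Among 1641 astrocytes 32 cells (1.95%) with 10 or more UMIs of the 9 genes held 38.4% of the class's total, with up to 175 in 1 cell. Among 3119 neurons 19 such cells (0.609%) held 9.75%, and 53.1% of neurons had no UMI of any of the 9. The 120 barcodes called doublets and left out (1.27%) had a median of 2 UMIs of the 9 genes, and 44 of them had 10 or more. The part of doublets in the rich cells of other classes was not tested.

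Cnp was seen in glia beyond the lineage in a way that did not follow Mbp. In astrocytes it had 338, 273 and 286 CPM in IDOL KO and 270, 358 and 232 CPM in WT, close to level over the libraries. Mbp in the same cells had 589, 429 and 2768 CPM in IDOL KO and 404, 978 and 1988 CPM in WT. The highest library was 1.54 times the lowest for Cnp and 6.85 times for Mbp. Cnp had 193 to 390 CPM in ependymal cells and 73.5 to 125 CPM in tanycytes, beside 10.7 to 42.7 CPM in neurons and 8.59 to 40.9 CPM in endothelial cells. Microglia had 62.5 to 271 CPM of Cnp, with 13 of their 31 Cnp UMIs in the rich WT cell. Cnp made up 51.8% of the UMIs of the 9 genes in ependymal cells and 29.8% in tanycytes, beside 9.10% in oligodendrocytes and 5.93% in neurons. After thinning, 12.6% of astrocytes and 10.4% of ependymal cells held a Cnp UMI, against 1.01% of neurons (unthinned 19.1%, 34.4% and 4.94%, at medians of 626, 1195 and 1440 UMIs). Thinned tanycytes gave 4.24% and microglia 5.54% (unthinned 15.9% and 4.88%, at medians of 1145 and 607 UMIs). Dnajc7, whose 3′ end meets that of Cnp, had 119 CPM in astrocytes, 204 CPM in ependymal cells and 167 CPM in tanycytes, beside 212 CPM in neurons and 125 CPM in endothelial cells, and its part in the Cnp counts was not tested.

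Mal was the member that stood out in the endothelium. Endothelial cells had 996, 953 and 1036 CPM of Mal in IDOL KO and 1652, 1076 and 1275 CPM in WT, 15% of the oligodendrocyte level, while no other class with 20 cells in every library passed 0.696%. Red blood cells were too few for that comparison, and their 41 cells held 28 UMIs of Mal, a pooled level of 473 CPM (315 to 684) and 45.9% of their UMIs of the 9 genes. Mal took 57.5% of the UMIs of the 9 genes in endothelial cells, against 15.5% in oligodendrocytes. Each of the 6 endothelial clusters had it, between 945 and 1503 CPM, beside 24.1 CPM in mural cells of the same vessels. After thinning, 39.4% of endothelial cells and 1.01% of neurons held a Mal UMI (unthinned 50.1% and 2.18%, at medians of 677 and 1440 UMIs). In pooled endothelial cells Mal, at 1142 CPM, was above Mbp, at 536 CPM, whereas in oligodendrocytes Mal, at 7760 CPM, was below Mbp, at 10758 CPM.

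All 3 IDOL KO libraries lay below all 3 WT libraries for endothelial Mal. An edgeR fit of endothelial cells, added after these levels had been seen, gave a log2 fold change of -0.42 ± 0.22 (SE) and an adjusted p of 0.882 over 2912 genes, so Mal did not pass. Groups did not overlap for 10.8% of the genes tested there, and 1 gene (0.0343%) passed, Mylip, a call that no left-out library kept. Mylip was kept in each edgeR fit regardless of the filter on low counts. Mbp was at -0.46 ± 0.31 and Mobp at 0.17 ± 0.29 in the same fit.

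In neurons 6 members could be tested and all 6 had a fitted log2 fold change below 0, from -1.02 to -0.17 with a median of -0.42, beside -0.00 over all 9816 genes. None passed edgeR's adjusted threshold, which 4 genes (0.0407%) did, Mylip among them (adjusted p = 0.0103, but 0.112 without IDOL KO 2, 0.404 without WT 1 and 0.0511 without WT 2). Of all genes 49.4% were fitted above 0. Cldn11 had 3.03, 4.10 and 13.9 CPM in IDOL KO and 11.9, 15.8 and 13.5 CPM in WT, and IDOL KO 3 lay among the WT libraries. Its log2 fold change was -1.02 ± 0.47 (-1.85 without IDOL KO 3) with an adjusted p of 0.985 in edgeR (0.0400 unadjusted, a threshold of 0.05 that 4.38% of all genes met). Mag had 11.4, 18.0 and 19.2 CPM in IDOL KO and 21.4, 30.1 and 22.5 CPM in WT. It was the only one of the 6 without overlap, against 10.2% of all genes, and its log2 fold change of -0.58 ± 0.31 had an adjusted p of 0.985 in edgeR. Both genes were at under 1% of their oligodendrocyte level in neurons, and Mag had 15 to 45 UMIs per library there. Cldn11 had 4, 5 and 13 UMIs in the IDOL KO neurons and 25, 11 and 9 in the WT neurons.

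In astrocytes 3 members were tested in edgeR, with log2 fold changes from 0.09 to 0.24, and none passed where 2 of 4194 genes (0.0477%) did. Mbp was at 0.17 ± 0.39, and at -1.11 without IDOL KO 3 and -0.27 without WT 1, so its direction rested on single libraries. Over all cells outside the lineage 8 members ran from -0.90 for Mog to 0.14 for Mal, none passed, and the 1 gene of 12537 that did (0.00798%) was Mylip (adjusted p = 0.0134, edgeR), a call that depended on single libraries. Over all cells together the 9 members ran from -0.21 to 0.25 with a median of -0.12. There 0 of 13057 genes (0%) passed edgeR, 262 had an unadjusted p under 0.05 and DESeq2 called 4.

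The genes most like the 9 in their pattern were searched over 42 points, 7 classes in 6 libraries, by the correlation of log2(CPM + 10) with the mean of the members over 9962 genes. This is a description across points that share libraries and depth. Tmem125 (r = 0.975), Galnt6 (0.968), Gm21984 (0.966) and Hapln2 (0.956) were among the first outside the list. Hapln2 was also a naming marker of oligodendrocytes. Each member was set against the mean of the others. Cldn11 (0.966), Ermn (0.965) and Mog (0.959) followed it closest. Mbp (0.907), Cnp (0.854) and Mal (0.772) followed it least, the 3 genes also found at the highest shares outside the lineage beside Mobp (0.95). The correlations and the shares are read from the same class levels, so they are not separate observations.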

How the data were processed

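Drop-seq libraries of hypothalamus, 3 IDOL KO and 3 WT, were taken from 1 table of 18204 genes and 13994 barcodes, with library and genotype read from the barcode names and the labels. The authors deposited raw UMI counts per gene and barcode, with no normalization. Per the submitters' processing notes, bcl2fastq and STAR 2.5.0c were used with mm10 (GRCm38); the counting program, annotation, strand setting and rule for picking barcodes are not given in the sources used here. Of the gene symbols 93.9% matched GENCODE M21.

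Barcodes with at least 300 genes and at most 20% mitochondrial UMIs were kept (9449), and 120 doublets called by Scrublet (expected rate 5%) were removed. Clustering (scanpy 1.11.5, leidenalg 0.10.2, igraph 0.11.9) left out the 9 myelin genes and used 2000 variable genes, 30 components, 15 neighbours and resolution 1. Clusters of 60 or more cells in which more than 1 class had at least 3 raised markers (14 of 27) were split again. The split used 1000 genes, 10 components and resolution 0.5. A class was considered for a cluster where at least 3 of its markers stood 4-fold over the median of all clusters. The best-scoring such class gave the name if a share of at least 0.5 of its markers was raised in this way. At least 1 of the cluster's 10 leading genes had to be its marker, and no other class could have more of its own there. The scoring was settled with the clusters in view. The 9 genes and all lists were chosen with earlier results of these data known. Named genes were the 9, Mylip, and the genes of each list with the 2 smallest p-values in each direction in oligodendrocytes, of which those with an unadjusted p under 0.05 are given.

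UMIs were summed per library and cell set. Sums were compared with edgeR 4.0.16 (R 4.3.3; filterByExpr, TMM, quasi-likelihood test, Benjamini-Hochberg at 0.05), and the step was tested on simulated data. Mylip was kept in each edgeR fit regardless of the filter and is counted among the genes tested and passing. Shares and summed levels were compared with two-sided exact permutation tests (scipy 1.17.1). DESeq2 1.42.0, other scalings, filters, cell sets and left-out libraries were alternatives. The comparison in endothelial cells, the relation and the pooled levels with each library left out, and microglia without 1 rich cell were added after seeing the data. Intervals are exact 95% ones and cover counting error only. Promoter windows came from RefSeq (GRCm38.p6). Some genes of the marker lists and of the search for like genes are not reported here.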

Additional observations from a re-analysis of the deposited data

How the results depend on the processing

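None of the 9 myelin genes passed in any alternative test of any of the 7 cell sets; the lowest adjusted p was 0.295, for Cnp in neurons without IDOL KO 3 (edgeR). Fitted log2 fold changes in oligodendrocytes kept their sign in every alternative for Mbp, Mobp, Mog, Mal and Cldn11. With 1 library left out, Mag ran from -0.21 to 0.33, Opalin from -0.054 to 0.59, Cnp from -0.091 to 0.15 and Ermn from -0.22 to 0.032; all 4 changed sign without IDOL KO 2, and Cnp (-0.05) and Ermn (0.032) also without WT 2. Mbp in astrocytes ran from -1.11 to 0.95 and changed sign without IDOL KO 3 and without WT 1. Mylip kept its sign, but its adjusted p in edgeR rose above 0.05 outside the lineage with cells of at least 500 genes (0.200) and without IDOL KO 1 (0.112), WT 1 (0.102), WT 2 (0.180) or WT 3 (0.0942), in neurons without IDOL KO 2 (0.112), WT 1 (0.404) or WT 2 (0.0511), and in endothelial cells without any 1 of the 6 libraries (0.128 to 0.972), with robust settings (0.225), the replicate block (0.211), the 9 genes kept in clustering (0.0691) or cells of at least 500 genes (0.996). DESeq2 gave Mylip 0.766 in neurons and 0.243 in endothelial cells. The causes were not tested.

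Counts of passing genes depended on the settings, and none of the counted genes was one of the 9. DESeq2 called 4 genes in all cells, 3 in oligodendrocytes, 2 in neurons, 0 in astrocytes, 0 in endothelial cells and 3 outside the lineage, where edgeR called 0, 6, 4, 2, 1 and 1. With no gene filter the counts were 1 in all cells, 13 in oligodendrocytes, 2 in precursors, 34 in neurons, 7 in astrocytes, 4 in endothelial cells and 2 outside the lineage. Robust settings gave 2 in neurons, 1 in astrocytes and 0 in endothelial cells. Cells with at least 500 genes gave 2 in oligodendrocytes and 0 each in astrocytes, endothelial cells and outside the lineage, and clustering with the 9 genes kept gave 0 in endothelial cells. With 1 library left out the counts ran from 0 to 1 in all cells, from 2 (without IDOL KO 2) to 6 in oligodendrocytes, from 0 to 2 (without WT 2) in precursors, from 1 (without IDOL KO 2 or WT 2) to 9 (without IDOL KO 3) in neurons, from 0 (without IDOL KO 2) to 3 (without IDOL KO 3) in astrocytes, from 0 to 5 (without WT 2) in endothelial cells and from 0 to 2 outside the lineage.

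The differences in shares and summed levels were smaller than what 1 library moved. With 1 library left out, IDOL KO minus WT ran from -2.79 to 0.731 percentage points for the oligodendrocyte share. Per 10000 UMIs the summed level ran from -45.0 to 5.74 in oligodendrocytes, from -15.8 to 3.35 in all cells and from -3.90 to 1.92 outside the lineage. The percent outside the lineage ran from -0.715 to 0.445, and was -0.176 with doublets kept, -0.0016 at resolution 0.5 and -0.167 in cells under 10 UMIs of the 9 genes. The relation between libraries, with each left out in turn, kept r between 0.78 and 0.97 and did not pass after adjustment.

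Replicate numbers paired the libraries only in part: same-numbered libraries deviated with r = 0.29, -0.17 and 0.30. IDOL KO 1 and IDOL KO 3 each correlated best with the WT library of their own number. IDOL KO 2 did not, and was closest to WT 1 (r = 0.14). With the replicate block edgeR called 1 gene in all cells, 9 in oligodendrocytes, 0 in precursors, 10 in neurons, 2 in astrocytes, 0 in endothelial cells and 2 outside the lineage. Mbp in astrocytes was then at -0.0067 on the log2 scale. The depth limits what can be seen of Mog, Opalin and Ermn outside oligodendrocytes, where each had few UMIs per library.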

Other observations

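Small clusters that took no class name also held Mal and Cldn11. A cluster of 32 cells led by Gkn3, Mgp and Ly6c1 had 638 CPM of Mal, against 92.5 CPM of Mbp and 4.87 CPM of Cldn11. Cldn11 had 421 CPM in a cluster of 44 cells and 920 CPM in one of 36 cells, both led by Mgp, Prg4 and Nov. A cluster of 20 cells led by Lyz2, Hbb-bs and Mrc1 had 2012 CPM of Mal and 977 CPM of Cldn11 together with 1610 CPM of Mbp, 690 CPM of Mog and 747 CPM of Cnp. These values come from pooled libraries, carry no test and were chosen after they had been seen.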
